A study of Mus musculus with 36 samples.

Results

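The genes described here encode the proteins of the cytosolic ribosome. They were taken as all protein-coding genes whose mouse symbol starts with Rpl or Rps followed by a digit, together with Rplp0, Rplp1, Rplp2 and Rpsa, without the Rps6k kinases, Rps19bp1 and symbols of pseudogenes. The rule found 85 of the 54203 genes in the tables, 33 of the small and 52 of the large ribosomal subunit. RNA was measured in 36 libraries, each made from 2000 plasma cells of C57/BL6 bone marrow that were sorted as positive for the surface proteins CD138 and TACI and for a reporter. The mice are models of subgroups of multiple myeloma, the cancer of plasma cells. The libraries formed 2 cohorts of 18. Cohort D held Ccnd1-Ikk2ca with 6 libraries, and Ikk2ca(D), Ccnd1 and Control(D) with 4 each. Cohort M held MMSET-Ikk2ca with 6 libraries, and Ikk2ca(M), MMSET and Control(M) with 4 each. Ccnd1 encodes cyclin D1, MMSET is another name of the histone methyltransferase gene Nsd2, and Ikk2ca stands for a constitutively active form of the NF-κB kinase IKK2. The promoter or Cre line behind each transgene, the reporter allele of the controls, and the age and sex of the mice are not given in the sources used here. The labels number the libraries of a group but do not say that each came from a separate mouse, and p-values here reflect only how much these libraries vary.

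A ribosome is built from a small subunit, which reads the mRNA, and a large subunit, which joins amino acids, and each holds ribosomal RNA and 1 copy of most of its proteins. Ribosomal protein mRNAs are among the most abundant of the cell, and many of them start with a run of pyrimidines (a C and then further C and T) that links their translation to growth signals through the kinase mTOR and the RNA-binding protein LARP1. Plasma cells make and secrete antibody in large amounts and depend on a high capacity for protein synthesis. Mammals also carry paralogs of a few ribosomal proteins, such as Rpl22l1 and Rps27l, whose use differs between cell types, and they carry very many processed pseudogenes of the family.

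The sequence around the start of transcription is shown for 10 of the genes whose values are given below, since the pyrimidine run is the feature that the family is best known for. Each line runs from 40 bases before to the 20th base after the RefSeq start (GRCm38.p6), 5′ to 3′ on the strand of the gene. Capitals mark a run of at least 8 pyrimidines that begins with a C within 15 bases of the start.
Rps18, chr17:33955646-33955705, minus strand: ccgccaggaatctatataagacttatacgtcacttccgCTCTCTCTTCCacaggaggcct
Rps6, chr4:86857348-86857407, minus strand: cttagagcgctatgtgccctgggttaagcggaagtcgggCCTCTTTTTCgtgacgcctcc
Rpl39, chrX:37085203-37085262, minus strand: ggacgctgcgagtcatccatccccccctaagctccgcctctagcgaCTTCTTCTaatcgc
Rps27l, chr9:66946046-66946105, plus strand: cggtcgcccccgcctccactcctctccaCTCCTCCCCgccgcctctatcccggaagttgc
Rps27, chr3:90213629-90213688, minus strand: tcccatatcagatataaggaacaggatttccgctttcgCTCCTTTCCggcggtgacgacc
Rpl22l1, chr3:28805468-28805527, plus strand: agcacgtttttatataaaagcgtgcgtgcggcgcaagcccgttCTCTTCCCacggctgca
Rps27rt, chr9:114982720-114982779, minus strand: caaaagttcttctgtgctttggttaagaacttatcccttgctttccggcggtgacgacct
Rpl24, chr16:55966235-55966294, plus strand: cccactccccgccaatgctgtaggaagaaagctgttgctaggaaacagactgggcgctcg
Rpl41, chr10:128549149-128549208, minus strand: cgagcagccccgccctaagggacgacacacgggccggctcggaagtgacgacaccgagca
Rpl5, chr5:107900488-107900547, plus strand: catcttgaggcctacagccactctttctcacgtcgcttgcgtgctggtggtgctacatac
The first 6 held a run by this definition and the last 4 held none at the annotated start. From the start on, Rps27 and Rps27rt share a stretch of 19 bases, positions 2 to 20 of Rps27 and 1 to 19 of Rps27rt, while the bases before it differ.

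A start with a pyrimidine run was common in the family. RefSeq windows (GRCm38.p6) were matched for 65 of the 85 genes, and 28 of these, 43.1%, held a run at 1 or more of their starts. The share was 13.7% of the 16462 protein-coding genes with a window and 11.6% of the genes for mitochondrial ribosomal proteins. The heptamer CCGGAAG, a match to the motif of ETS factors, stood on either strand of the 300-base window in 40% of the family, in 37.7% of the mitochondrial ribosomal protein genes and in 13.4% of protein-coding genes. A match describes the letters only, and no match says nothing about binding.

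The libraries held 54.0 to 97.5 M reads (M, 1000000), of which immunoglobulin genes took 43.9% to 73.0%, so that 16.2 to 34.9 M reads remained for all other genes. The genes named in the labels followed them. Ccnd1 had 252 to 964 reads per 1000000 scaled by library (CPM) in the libraries with that transgene and at most 3.49 CPM in the other libraries of cohort D. Nsd2 had 178 to 850 CPM in the libraries named MMSET or MMSET-Ikk2ca and at most 5.95 CPM in the rest of cohort M. Ikbkb, the gene of IKK2, had 41.3 to 80.6 CPM in the libraries with Ikk2ca and at most 37.8 CPM in those without. All 8 plasma cell markers listed, among them Sdc1 (CD138), Tnfrsf13b (TACI), Xbp1 and Irf4, had reads in every group.

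Ribosomal protein genes took a larger share of the reads outside immunoglobulin genes in Ccnd1-Ikk2ca, Ikk2ca(D) and Ikk2ca(M) than in the control libraries of the same cohort. Of the reads outside immunoglobulin genes, the 85 genes held 3.61 ± 0.844% in Ccnd1-Ikk2ca (SD, n = 6), 2.96 ± 0.505% in Ikk2ca(D), 2.21 ± 0.0963% in Ccnd1 and 2.17 ± 0.16% in Control(D) (SD, n = 4 each). In the same libraries of cohort D, Ccnd1-Ikk2ca lay between 2.98% and 5.1% with a median of 3.15%, Ikk2ca(D) had 3.32, 3.47, 2.45 and 2.62%, Ccnd1 had 2.2, 2.32, 2.09 and 2.22%, and Control(D) had 2.34, 1.98, 2.10 and 2.25%. Every Ccnd1-Ikk2ca and Ikk2ca(D) library was above every Ccnd1 and Control(D) library. As a share of all reads this held for Ccnd1-Ikk2ca, with 1.11% to 1.91%, but not for Ikk2ca(D). Ikk2ca(D) had 0.804% to 1.53% of all reads, which overlapped Control(D) with 0.721% to 0.883%. Ccnd1-Ikk2ca libraries 2 and 3, with 5.10% and 4.15%, stood above the other 4. In cohort M the share was 2.40 ± 0.326% in MMSET-Ikk2ca (SD, n = 6), 2.89 ± 0.266% in Ikk2ca(M), 2.51 ± 0.548% in MMSET and 2.11 ± 0.408% in Control(M) (SD, n = 4 each). There MMSET-Ikk2ca lay between 2.03% and 2.85%, Ikk2ca(M) had 2.90, 3.24, 2.83 and 2.60%, MMSET had 2.38, 2.33, 3.30 and 2.04%, and Control(M) had 2.43, 2.04, 2.40 and 1.56%. Every Ikk2ca(M) library was above every Control(M) library, whereas MMSET-Ikk2ca and MMSET overlapped Control(M). Of all reads, Ikk2ca(M) had 0.867% to 1.23% and Control(M) 0.535% to 0.812%. The balance of the subunits differed by a few percentage points. Genes of the small subunit held 40.5% to 42.4% of the ribosomal protein reads in Ccnd1-Ikk2ca and 39.9% to 40.9% in Control(D). They held 41.0% to 43.3% in MMSET-Ikk2ca and 39.9% to 40.7% in Control(M). These shares were not tested, since a score over chosen genes supports no p-value. In sorted bulk samples, fewer cells with an mRNA and less mRNA per cell cannot be told apart.

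**Figure D1:**
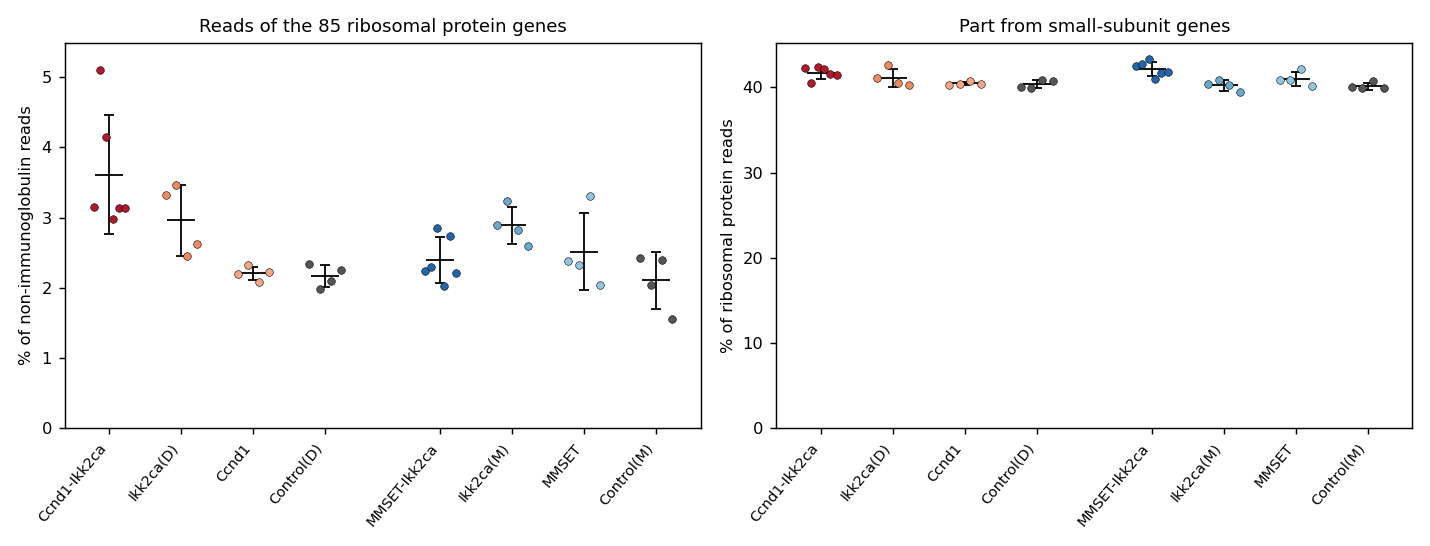
Share of reads outside immunoglobulin genes held by the 85 ribosomal protein genes (left, %) and the part of those reads from genes of the small subunit (right, %), by group. Points are libraries, and the line and bar are the mean and SD. The Ccnd1-Ikk2ca points lie between 2.98% and 5.1%, above all Control(D) points, and those of MMSET-Ikk2ca lie between 2.03% and 2.85%, overlapping those of Control(M).

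Against Control(D), Ccnd1-Ikk2ca plasma cells had higher mRNA of ribosomal protein genes of both subunits. Of the 83 genes that passed the filter on low counts, 55 rose and 0 fell (edgeR's quasi-likelihood test, Benjamini-Hochberg adjusted p under 0.05 over all genes), where 5.83% of all 15323 genes tested rose. The 2 that did not pass were Rpl3l and Rpl10l. The median log2 fold change was 0.67 over the 83 genes and 0.02 over all genes tested. In 50 of the 83 every Ccnd1-Ikk2ca library was above every Control(D) library, which held for 6.93% of all genes. The small subunit had 23 of 33 genes higher and the large subunit 32 of 50, each with a median of 0.67. Leaving out Control(D) library 2 lowered the count to 33, and leaving out Ccnd1-Ikk2ca libraries 2 and 3 together gave 33 higher and 1 lower with a median of 0.46. With the trend of fold changes with transcript length removed, 19 of the 83 genes rose, with a median of 0.38. Over all genes tested, the 893 called higher became 476, 632 and 721 under these alternatives, in the order given. In all, 32 of the 55 were called whichever single library was left out.

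**Figure D2:**
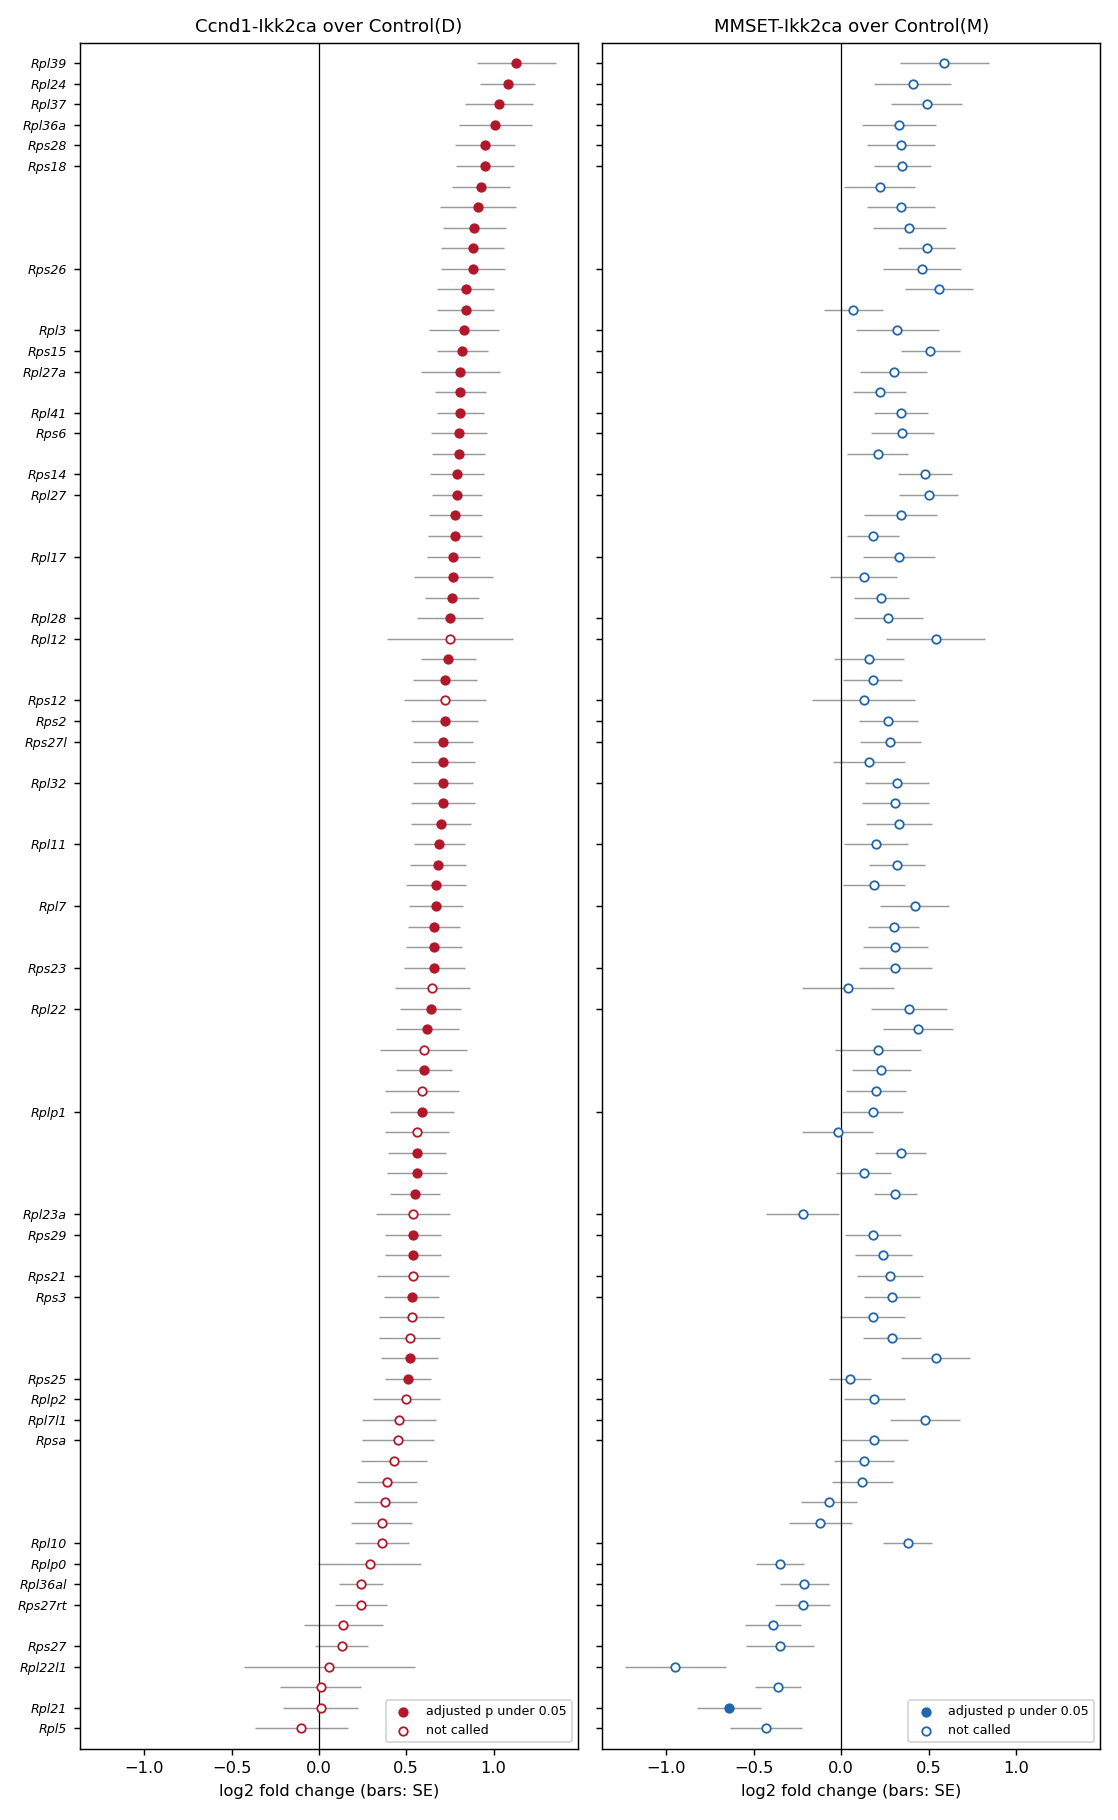
Log2 fold change with SE of the ribosomal protein genes tested other than Rpl39l, in Ccnd1-Ikk2ca over Control(D) (left, n = 6 and 4) and in MMSET-Ikk2ca over Control(M) (right, n = 6 and 4), in the order of the left panel, with names for genes given in the text. Filled points passed an adjusted p of 0.05 in edgeR. Most points lie right of 0 on the left, with 55 genes called higher, and Rpl21 is the only filled point on the right.

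Among proteins of the small subunit, Rps18 had a lowest, median and highest level of 166, 182 and 287 CPM in Ccnd1-Ikk2ca, against 111, 88.3, 103 and 117 CPM in Control(D). The groups did not overlap, and Rps18 rose by 0.95 (SE 0.168, edgeR adjusted p = 0.00162) on the log2 scale. Rps6, the subunit protein that S6 kinase phosphorylates downstream of mTOR, had 275, 300 and 448 CPM in Ccnd1-Ikk2ca, against 213, 175, 217 and 171 CPM in Control(D). Every Ccnd1-Ikk2ca library was again above every control library, with a log2 fold change of 0.80 (SE 0.161, edgeR adjusted p = 0.00389). Rps15 and Rps28, also among the small-subunit genes with the smallest p, had log2 fold changes of 0.82 and 0.95. Of 5 genes for proteins that line the mRNA channel, Rps2, Rps3, Rps26 and Rps28 rose, where 55 of 83 genes of the family did. Rpsa, the remaining one, also known as the laminin receptor, averaged 236 ± 74.9 CPM in Ccnd1-Ikk2ca, against 173 ± 30.1 CPM in Control(D) (SD, n = 6 and 4) and was not called (edgeR adjusted p = 0.179).

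In the large subunit, Rpl24, a late-joining protein of the bridge between the subunits, had the smallest p of the family. Its lowest, median and highest level was 126, 134 and 206 CPM in Ccnd1-Ikk2ca, against 73.8, 56.0, 84.8 and 64.6 CPM in Control(D). The groups were apart by more than the whole range of the controls, and the log2 fold change was 1.08 (SE 0.158, edgeR adjusted p = 0.000328). Rpl41, which encodes the smallest protein of the ribosome, had 410, 459 and 664 CPM in Ccnd1-Ikk2ca, against 314, 242, 290 and 276 CPM in Control(D), a log2 fold change of 0.81 (SE 0.137, edgeR adjusted p = 0.0012). Rpl39, at the exit of the tunnel that the new protein leaves through, had 45.8, 58.1 and 92.3 CPM in Ccnd1-Ikk2ca, against 32.1, 26.7, 35.2 and 24.2 CPM in Control(D). Its log2 fold change of 1.13 (SE 0.224, edgeR adjusted p = 0.00349) was the largest of the family apart from that of Rpl39l, which was barely detected. Of 8 genes for proteins near the tunnel exit, 7 rose, with a median of 0.74, and Rpl23a did not pass. Of 15 genes mutated in human Diamond-Blackfan anaemia, an inherited failure of red cell production, 13 rose, with a median of 0.71. The exceptions were Rpl5 and Rps27. Over the whole family 55 of 83 genes rose, with a median of 0.67, where 5.83% of all genes tested rose. The genes of the tunnel exit and of the anaemia were not tested against the rest of the family.

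**Figure D3:**
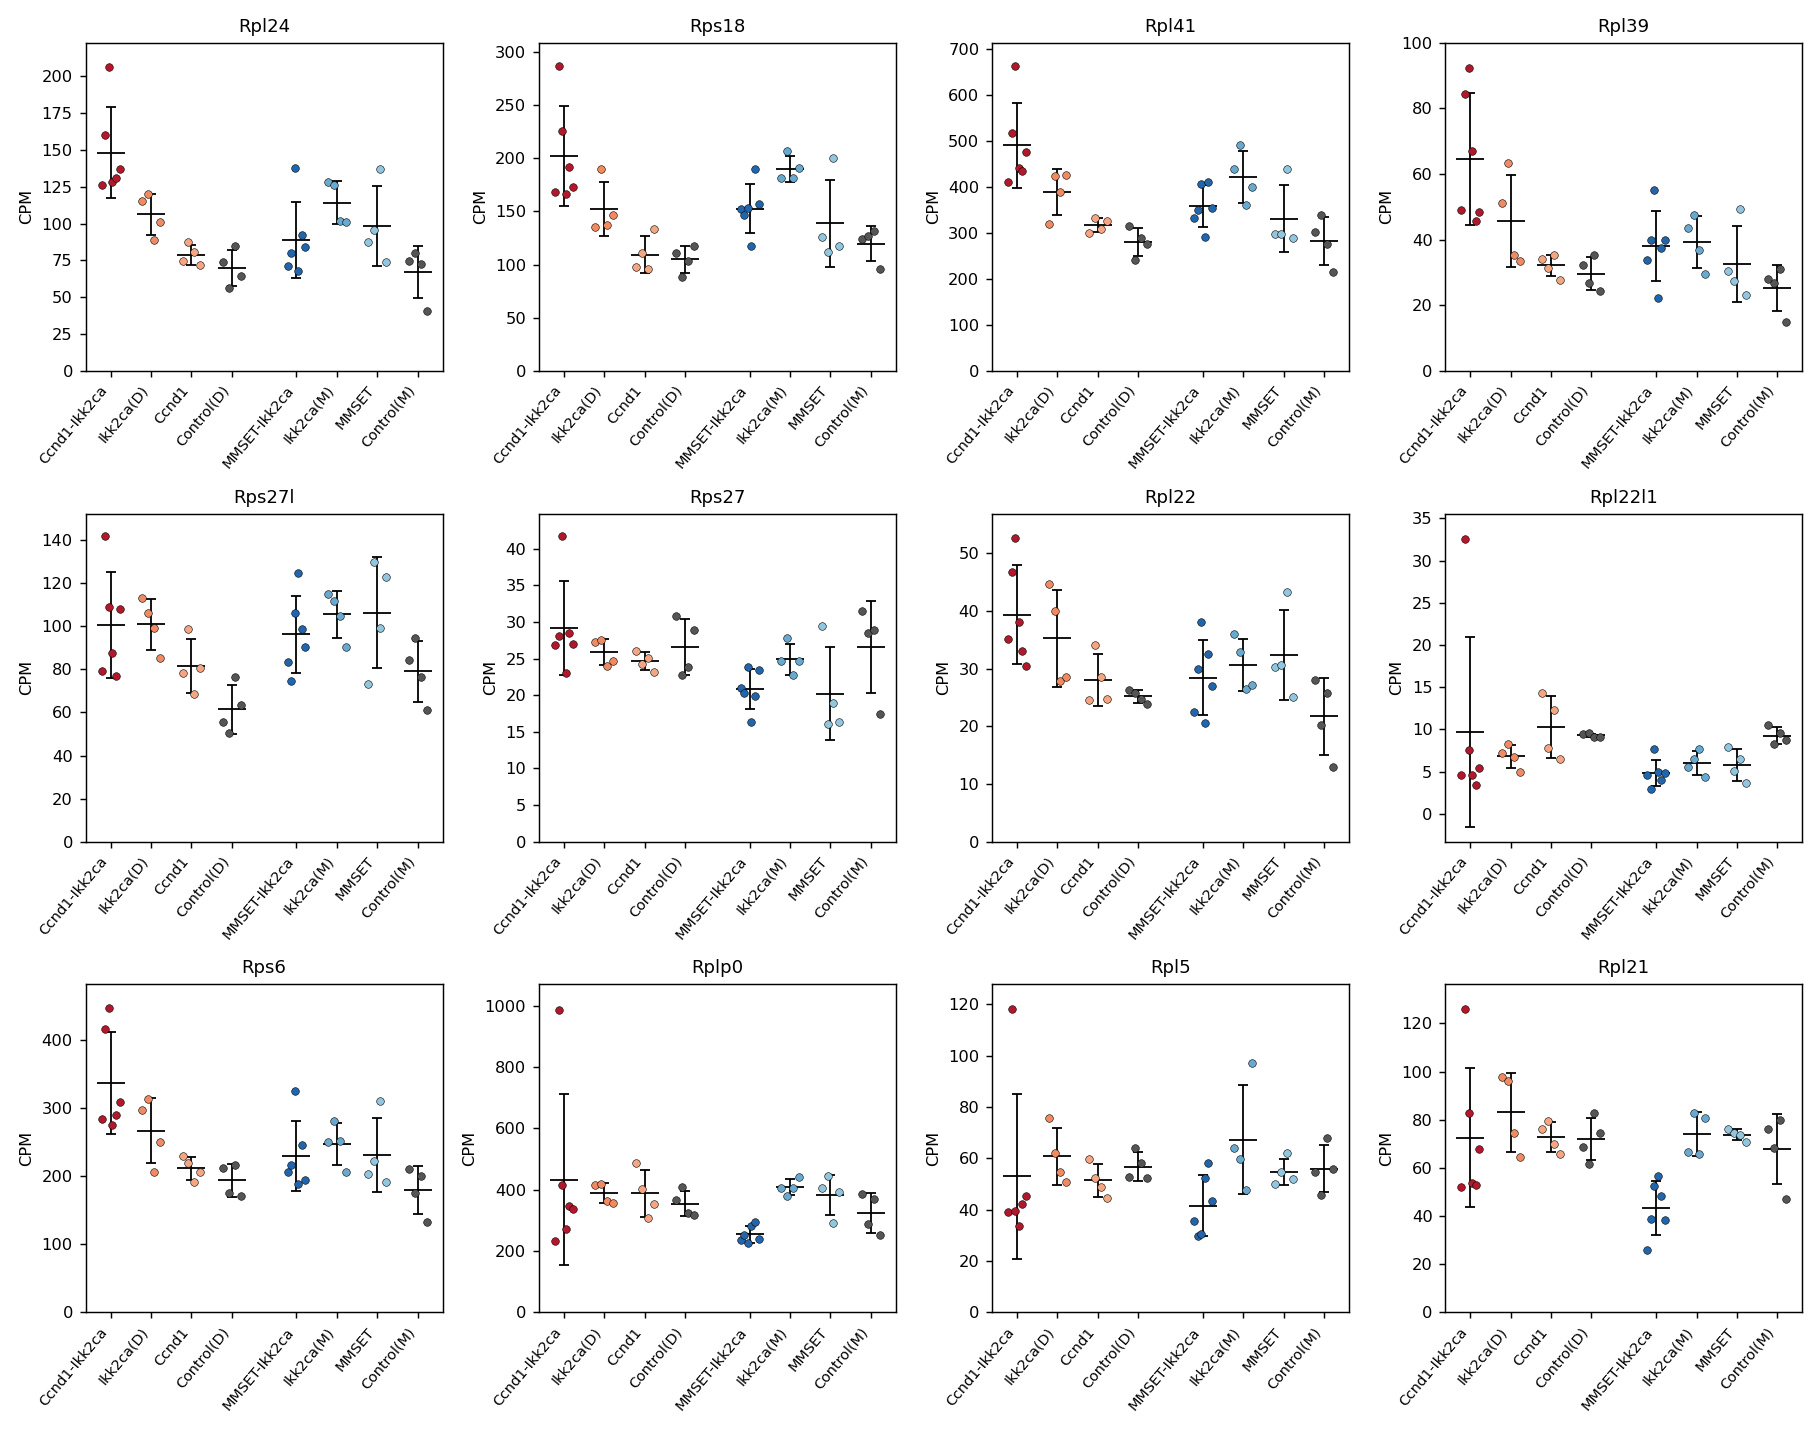
CPM of 12 ribosomal protein genes by group, from the fit of each cohort. Points are libraries, and the line and bar are the mean and SD; the 2 cohorts were scaled separately. In the panels of Rpl24, Rps18, Rpl41 and Rpl39 all Ccnd1-Ikk2ca points lie above all Control(D) points, whereas 1 library sets the upper end in the panels of Rpl22l1, Rplp0 and Rpl5, at 32.5, 987 and 118 CPM.

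Of the 3 genes of the stalk of the large subunit, which recruits elongation factors, 1 was called, where 55 of 83 of the family were. Rplp1 rose, with a log2 fold change of 0.59 (SE 0.185, edgeR adjusted p = 0.0471). Rplp2 changed by 0.50 (SE 0.193, edgeR adjusted p = 0.105), and every Ccnd1-Ikk2ca library, at 60.6 to 115 CPM, was above the Control(D) libraries at 49.8 to 58.3 CPM, but the change did not pass. Rplp0 (chr5:115559467-115563727, plus strand), the base of the stalk, had 234, 987, 415, 272, 348 and 338 CPM in Ccnd1-Ikk2ca, against 365, 408, 325 and 319 CPM in Control(D). Ccnd1-Ikk2ca library 2 was far above the rest, library 3 was just above every control, libraries 5 and 6 lay inside the control range and libraries 1 and 4 below it. The log2 fold change of 0.29 (SE 0.293, edgeR adjusted p = 0.619) became −0.24 (adjusted p = 0.412) without Ccnd1-Ikk2ca libraries 2 and 3.

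The particle of Rpl5, Rpl11 and 5S RNA, which can bind and block the p53 ligase Mdm2, was split. Rpl11 had 118, 123 and 175 CPM as lowest, median and highest in Ccnd1-Ikk2ca, against 98.4, 79.1, 85.6 and 81.0 CPM in Control(D). It rose by 0.69 (SE 0.144, edgeR adjusted p = 0.00509) with no overlap. Rpl5 had 39, 118, 39.6, 33.6, 42.4 and 45.5 CPM in Ccnd1-Ikk2ca, against 52.6, 64.2, 58.1 and 52.3 CPM in Control(D). All Ccnd1-Ikk2ca libraries but library 2 were below every control, and the change of −0.10 (SE 0.268, edgeR adjusted p = 0.883) did not pass. The value for Rpl5 is uncertain, since 84.2% of the reads of Rpl5 and its near-identical copies were listed under copies, most of them under Gm15500 on chromosome 7. The sum over the family changed by 0.02 (edgeR adjusted p = 0.98). Rpl5 and Rpl11 were not tested against each other.

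The values of the paralogs follow, and differences between the genes of a pair were not tested. Rps27l, a p53-responsive paralog of Rps27, had 76.9, 97.9 and 142 CPM as lowest, median and highest in Ccnd1-Ikk2ca, against 55.5, 50.6, 76.7 and 63.5 CPM in Control(D). It rose by 0.71 (SE 0.174, edgeR adjusted p = 0.0141), and the groups just met without overlap. Rps27 had 23.0 to 41.7 CPM in Ccnd1-Ikk2ca, against 22.8 to 30.8 CPM in Control(D), with a change of 0.13 (SE 0.15, edgeR adjusted p = 0.66). Rps27rt, an intronless gene that encodes the same kind of protein, had 89.0 to 136 CPM in Ccnd1-Ikk2ca, against 62.5 to 101 CPM in Control(D), with a change of 0.24 (SE 0.149, edgeR adjusted p = 0.357). Rpl22 rose by 0.64 (SE 0.176, edgeR adjusted p = 0.0235), with 30.4 to 52.7 CPM in Ccnd1-Ikk2ca, against 23.9 to 26.3 CPM in Control(D). Its paralog Rpl22l1 had 4.61, 32.5, 7.57, 4.55, 3.45 and 5.43 CPM in Ccnd1-Ikk2ca, against 9.46, 9.52, 9.14 and 9.12 CPM in Control(D). Here 5 of the 6 Ccnd1-Ikk2ca libraries were below every control and library 2 was above them all. The log2 fold change was 0.06 (SE 0.491, edgeR adjusted p = 0.969) with all libraries and −1.03 (adjusted p = 0.0284) without Ccnd1-Ikk2ca libraries 2 and 3, a choice made after the values were seen. Rpl36a rose by 1.01 (SE 0.211, edgeR adjusted p = 0.00515), and Rpl36al, its paralog, changed by 0.24 (SE 0.127, edgeR adjusted p = 0.243). Rpl7 rose by 0.67 and Rpl3 by 0.83 (edgeR adjusted p = 0.0106 and 0.0121), and Rpl7l1, a paralog of Rpl7, changed by 0.46 (adjusted p = 0.174).

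Against Ccnd1, the same Ccnd1-Ikk2ca libraries had 37 of 83 genes higher and 0 lower (edgeR, adjusted p under 0.05), where 2.81% of all genes tested rose, and the medians were 0.57 over the family and 0.01 over all genes. All 37 were among the 55 called against Control(D); both comparisons use the same Ccnd1-Ikk2ca libraries. Rpl24 had 74.8, 87.2, 81.0 and 71.8 CPM in Ccnd1, below every Ccnd1-Ikk2ca library, and the log2 fold change was 0.91 (SE 0.157, edgeR adjusted p = 0.00207). The 5 next by p were Rps18 with 0.88, Rpl27 with 0.74, Rps26 with 0.88, Rpl17 with 0.73 and Rpl28 with 0.87. The count was 18 without any 1 of Ccnd1 libraries 1, 2 and 3, 23 without Ccnd1-Ikk2ca library 3, and 22 with only these groups in the fit. Without Ccnd1-Ikk2ca libraries 2 and 3 it was 12 higher and 1 lower. Calls over all genes fell as well, from 430 higher to 197, 246 and 228 without Ccnd1 libraries 1, 2 and 3 in turn. They fell to 297 higher without Ccnd1-Ikk2ca library 3 and to 284 higher without Ccnd1-Ikk2ca libraries 2 and 3.

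With Ikk2ca alone the family leaned the same way without passing the threshold. In Ikk2ca(D) against Control(D), 0 of 83 genes were called by edgeR, where 0.437% of all genes were called, and 37 were higher and 0 lower at an unadjusted p under 0.05, a level that 13.3% of all genes reached in either direction. DESeq2 called 9 higher and 0 lower, among them Rpl24, Rpl37, Rpl41, Rps15 and Rps27l, and over all genes 472 higher and 215 lower. The median log2 fold change was 0.39 over the family and 0.01 over all genes, and 0.20 over the family with the trend of fold changes with transcript length, described below, removed. Rpl24 had 115, 120, 89.1 and 101 CPM in Ikk2ca(D), against 73.8, 56.0, 84.8 and 64.6 CPM in Control(D). All 4 Ikk2ca(D) libraries were higher, and the change of 0.61 (SE 0.168, edgeR adjusted p = 0.12) did not pass. Rps27l had 113, 106, 99.2 and 85.4 CPM in Ikk2ca(D), again above every control, with a change of 0.71 (SE 0.188, edgeR adjusted p = 0.101). In 27 genes every Ikk2ca(D) library was above every control, which held for 4.09% of all genes. No difference between the 2 groups with Ikk2ca in cohort D passed: in Ccnd1-Ikk2ca against Ikk2ca(D), 0 of 83 genes were called by edgeR and 0 by DESeq2, where 0.424% of all genes were called. At an unadjusted p under 0.05, reached by 11.3% of all genes, 20 were higher and 0 lower, with a median of 0.29, which was 0.03 without Ccnd1-Ikk2ca libraries 2 and 3 and 0.17 with the length trend removed.

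Ccnd1 alone had no called gene of the family. In Ccnd1 against Control(D), 0 of 83 genes were called by edgeR and 0 by DESeq2, where 0.00653% of all genes, a single gene, were called, and 2 were higher at an unadjusted p under 0.05, reached by 6.28% of all genes. The lowest adjusted p was 0.777 and the median 0.10, and −0.03 with the length trend removed. Every Ccnd1 library was above every control in 3 genes, against 1.62% of all genes. The non-additive part of Ccnd1-Ikk2ca, its change beyond the sum of those in Ikk2ca(D) and Ccnd1, had a median of 0.19 over the family. No gene of the family passed in edgeR or DESeq2, where 0.0261% of all genes did, and 2 were higher and 0 lower at an unadjusted p under 0.05, reached by 6.86% of all genes.

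In cohort M, Ikk2ca(M) against Control(M) also gave values mostly above 0 without a call, with 0 of 83 genes called by edgeR, where 0.649% of all genes were called. At an unadjusted p under 0.05, reached by 12.4% of all genes, 54 were higher and 0 lower. DESeq2 called 8 higher, Rpl12, Rpl27, Rpl37, Rpl41, Rps14, Rps15, Rps18 and Rps21, and over all genes 370 higher and 282 lower. The median was 0.46 over the family and −0.01 over all genes, and 0.27 over the family with the length trend removed. Rps18 had 181, 207, 181 and 191 CPM in Ikk2ca(M), against 124, 127, 132 and 95.7 CPM in Control(M). The groups did not overlap, and the change was 0.67 (SE 0.178, edgeR adjusted p = 0.107). The lowest adjusted p of the family was 0.0559, that of Rps14, named for that reason after its values were seen. In 31 genes every Ikk2ca(M) library was above every control, against 4.33% of all genes. In MMSET against Control(M), 0 of 83 genes were called by edgeR, again with 0.649% of all genes called. At an unadjusted p under 0.05, 15 were higher and 1 lower, where 13.3% of all genes reached that level. DESeq2 called Rpl12 higher, and over all genes 466 higher and 279 lower. The median was 0.29, and 0.19 with the length trend removed. In 2 genes every MMSET library was above every control, against 3.14% of all genes. MMSET library 3 had a median of 0.64 over the family relative to the mean of Control(M), and the other 3 MMSET libraries had −0.01 to 0.23.

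The double transgenic group of cohort M showed no family-wide rise by the test. In MMSET-Ikk2ca against Control(M), 0 of 83 genes rose and 1 fell (edgeR, adjusted p under 0.05), where 3.41% of all genes fell. At an unadjusted p under 0.05, 16 were higher and 6 lower, where 21.8% of all genes reached that level. DESeq2 called 5 higher and 3 lower, and over all genes 1212 higher and 984 lower. The median was 0.27 over the family and 0.01 over all genes, and 0.17 over the family with the length trend removed. In 4 genes every MMSET-Ikk2ca library was above every control, against 4.77% of all genes. The gene that fell was Rpl21 (chr5:146832890-146837032, plus strand), of the large subunit, with a lowest, median and highest level of 25.9, 43.5 and 56.6 CPM in MMSET-Ikk2ca, against 76.1, 68.2, 79.9 and 47.1 CPM in Control(M). The groups overlapped through Control(M) library 4, and the log2 fold change was −0.64 (SE 0.183, edgeR adjusted p = 0.039). The call was lost without any 1 of MMSET-Ikk2ca libraries 1, 2 and 6, MMSET libraries 2, 3 and 4 and Control(M) libraries 1, 2 and 3. Rpl22l1 had 2.95, 4.68 and 7.65 CPM in MMSET-Ikk2ca, against 10.5, 8.33, 9.54 and 8.70 CPM in Control(M). Every MMSET-Ikk2ca library was lower, and the change of −0.95 (SE 0.289) had an edgeR adjusted p of 0.0548.

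Rplp0 and Rpl21 were lower in MMSET-Ikk2ca than with either transgene alone. Rplp0 had 225, 246 and 296 CPM as lowest, median and highest in MMSET-Ikk2ca, against 407, 378, 405 and 441 CPM in Ikk2ca(M) and 405, 444, 292 and 392 CPM in MMSET. No MMSET-Ikk2ca library reached an Ikk2ca(M) library, whereas MMSET library 3 fell within its range. The log2 fold change was −0.68 against Ikk2ca(M) (SE 0.138, edgeR adjusted p = 0.0193) and −0.59 against MMSET (SE 0.138, edgeR adjusted p = 0.0383). Rpl21 had 66.7, 82.7, 65.8 and 80.9 CPM in Ikk2ca(M) and 76.0, 74.7, 73.7 and 70.8 CPM in MMSET, all above every MMSET-Ikk2ca library. Its log2 fold change was −0.77 in both comparisons (SE 0.183 each, edgeR adjusted p = 0.0492 against Ikk2ca(M) and 0.0416 against MMSET). These were the 2 of 83 genes that edgeR called in each comparison, where 0.532% of all genes fell against Ikk2ca(M) and 0.941% against MMSET, and the medians were −0.25 and −0.04. With the length trend removed these medians were −0.11 and −0.03. DESeq2 called 5 genes of the family lower against Ikk2ca(M) and 3 lower against MMSET, and none higher. The share that DESeq2 called over all genes is not given for these comparisons, so the counts cannot be judged against it. The 2 comparisons share the MMSET-Ikk2ca libraries. Each call was lost when some single libraries were left out, which took the counts to between 0 and 3 against Ikk2ca(M) and between 0 and 2 against MMSET. Read assignment also bears on the pair: 13.5% of the reads of Rpl21 and its copies and 8.46% of those of Rplp0 and its copies were listed under copies. The non-additive part of MMSET-Ikk2ca had a median of −0.53 over the family, with 0 of 83 genes called by edgeR, where 0.0973% of all genes were called. At an unadjusted p under 0.05, reached by 10.4% of all genes, 0 were higher and 40 lower. DESeq2 called Rpl12 and Rplp0 lower, and over all genes 204 higher and 239 lower. The family median was −0.30 with the length trend removed.

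The changes of the double transgenic groups were also set against each other. The change in MMSET-Ikk2ca over Control(M), minus that in Ccnd1-Ikk2ca over Control(D), had a median of −0.44 over the family and −0.05 over all genes in a fit of all 36 libraries. No gene of the family passed in edgeR or in DESeq2, where 0.175% of the 17116 genes were called by edgeR, and 22 were lower and 0 higher at an unadjusted p under 0.05, reached by 11.2% of all genes. For Rpl24 the difference was −0.67 (SE 0.271, edgeR adjusted p = 0.325). The median was −0.17 without Ccnd1-Ikk2ca libraries 2 and 3, and −0.19 with the length trend removed. A rise limited to cohort D was therefore not shown by this test. The controls themselves differed by a median of −0.21 in Control(M) against Control(D), with 0 genes called by edgeR, where 0.0409% of all genes were called. At an unadjusted p under 0.05, 0 were higher and 7 lower, where 10.4% of all genes reached that level. DESeq2 called 1 lower, and over all genes 297 higher and 162 lower. The median was −0.32 with the length trend removed. Control(M) library 4 lay low across the family, with a median of −0.46 relative to the mean of its group. Cohort and anything handled with it cannot be told apart here.

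Levels per length ranged over more than 5 orders of magnitude in the family. TPM are reads scaled by effective transcript length and library. For 89% of transcripts the effective length was the length minus 250 bases, which weighs most on short transcripts. As means over all libraries, Rpl41 with 587, Rps27rt with 322, Rps29 with 282 and Rpl32 with 276 TPM were among the highest. The order at the top in TPM depends on whether near-identical copies are added. With their TPM added, Rps29 had 808 TPM, above Rpl41 with 588 TPM, and Rpl10 had 314 in place of 78.7 TPM. Yet copies held 7.83% of the reads of Rps29 and its copies, against 72.9% for Rpl10. The higher TPM of Rps29 therefore does not mean that most of its reads were under copies. Rpl12 had 30 TPM with copies added. Without copies added, the lowest were Rpl10l with 0.00283, Rpl3l with 0.00843, Rpl39l with 0.135, Rpl12 with 2.12 and Rpl7l1 with 6 TPM. Rpl3l is known from heart and skeletal muscle and Rpl10l and Rpl39l from the testis. Rpl39l had a mean of 11.9 reads per library and none in 21 libraries, so no fold change is given for it. Among the paralogs on the same scale, Rps27rt stood at 322 TPM above Rps27l at 130 TPM and Rps27 at 63.8 TPM. In mean reads per library the order was another, with 6173 for Rps27l, 5609 for Rps27rt and 1677 for Rps27. Rpl36al stood at 239 TPM above Rpl36a at 66.4 TPM, and Rpl22 at 39.4 TPM above Rpl22l1 at 8.85 TPM. The spread between libraries of a group, as a pooled SD on the log2 scale, had a median of 0.25 in cohort D, from 0.16 for Rpl36al to 0.66 for Rpl22l1. In cohort M the median was 0.29, from 0.15 for Rps25 to 0.47 for Rps12.

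Several of these levels depend on how reads were divided among near-identical copies. Copies, defined as genes outside the family with at least 50% of their own stretches of 31 bases in the transcripts of a ribosomal protein gene, were found for 74 of the 85. For 55 they held under 1% of the reads of the family of copies, for 15 over 10%, and for 6 over 50%. These 6 were Rpl5 with 84.2%, Rpl12 with 80.8%, Rpl10 with 72.9%, Rps23 with 60.6%, Rpl27a with 55% and Rpl28 with 50.6%. Rps27rt shares 92.7% of its 31-base stretches with other genes. It took 72.2% to 79.7% of the reads of Rps27 and Rps27rt together in all libraries, a narrow range. Gm15500 likewise took 80.4% to 86.2% of the reads of Rpl5 and Gm15500 together. The low level listed for Rpl12 therefore leaves out most of its family of copies. With copies summed, the count of genes called in Ccnd1-Ikk2ca against Control(D) stayed within 1.5 times that given above. The tables were counted without strand here, so reads of genes that overlap on opposite strands cannot be told apart.

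**Figure D4:**
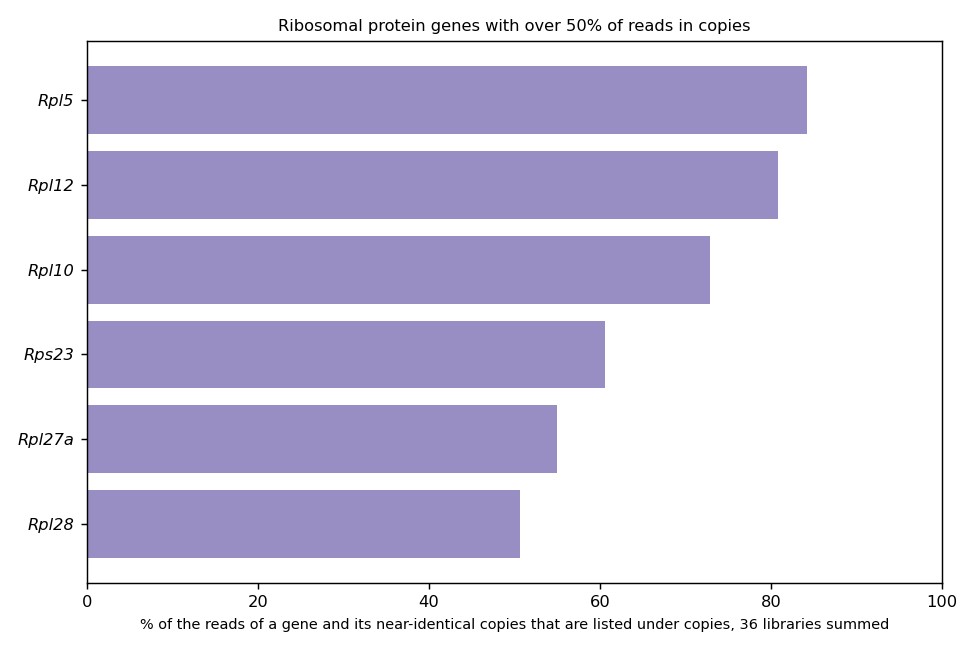
The 6 ribosomal protein genes with over 50% of reads under near-identical copies. Bars give the share (%) of the summed reads of a gene and its copies that was listed under copies, over 36 libraries, from 84.2% for Rpl5 to 50.6% for Rpl28.

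Fold changes in Ccnd1-Ikk2ca were higher for short transcripts in general, which bears on a family of short mRNAs. Among other protein-coding genes above 5 average log2 CPM, those of up to 600 bases had a median log2 fold change of 0.54 against Control(D), and 52.3% of 44 rose. Those of 600 to 1000 bases had a median of 0.30 with 26.5% of 185 higher, those of 1000 to 1500 bases 0.15 with 17.8% of 325 higher, and those over 4000 bases −0.12. Ribosomal protein genes of up to 600 bases had a median of 0.71 with 83.9% of 31 higher, and those of 600 to 1000 bases 0.66 with 66.7% of 36 higher, above other genes of the same length. With the length trend of other genes removed from each library, an alternative added after the values were seen, 19 of the 83 genes rose and 0 fell, and the family median was 0.38. Rpl24 then had 0.77, Rps18 0.60, Rpl39 0.79, Rps6 0.57 and Rpl41 0.40, each still called (edgeR adjusted p = 0.00237, 0.0168, 0.0247, 0.0304 and 0.0178). Against Ccnd1 the count was 13, with a median of 0.38. Over all genes, 721 were then called higher against Control(D) and 406 against Ccnd1. The part of transcript length in the result was not tested beyond this alternative.

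**Figure D5:**
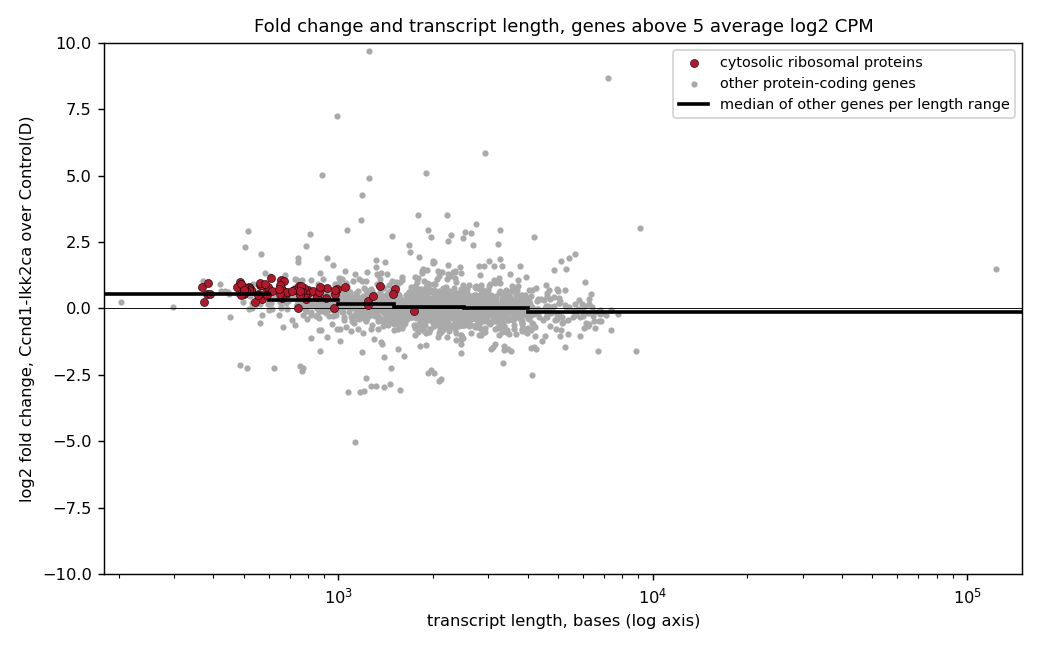
Log2 fold change in Ccnd1-Ikk2ca over Control(D) against transcript length in bases (log axis) for protein-coding genes above 5 average log2 CPM. Red points are cytosolic ribosomal protein genes, grey points other genes, and black lines the medians of the other genes per range of length, from 0.54 up to 600 bases to −0.12 over 4000 bases. Most red points lie on or above the line of their range.

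Other genes of the translation apparatus were counted from lists. In this comparison of Ccnd1-Ikk2ca against Control(D), 5.83% of all genes tested rose, 893 of 15323, and 815 fell. Ribosomal protein genes with names of another form rose too, Fau by 0.64 and Rack1 by 0.72 on the log2 scale. Of 6 genes of elongation factors 3 rose, Eef1b2 with 1.07, Eef2 with 0.84 and Eef1g with 0.60, and the median was 0.55. Of 11 other mRNAs known to start with a pyrimidine run, Naca, Eif4b, Tpt1 and Btf3 rose, with a median of 0.46. Among the genes that build ribosomes, few were called. Of 54 assembly factors 3 rose, a share near that of all genes: Wdr12 with 1.25, Nhp2 with 1.14 and Pno1 with 0.68, and the median was 0.23. Of 14 genes of RNA polymerase I none was called, with a median of 0.09, and of 7 host RNAs of small nucleolar RNAs none was called, with a median of 0.37. Of 34 initiation factors Eif4b rose by 0.85 and Eif4h fell by 0.76, with a median of 0.25. Of 12 tested regulators of growth signalling Eif4ebp1, a repressor of cap-dependent translation, rose by 0.83, and Rheb, an activator of mTOR, fell by 0.81 and Eif4ebp2 by 0.98. Of 4 genes of the p53 axis Cdkn1a, the cell cycle inhibitor p21, rose by 4.17 with 44.6 ± 11.8 CPM in Ccnd1-Ikk2ca, against 2.48 ± 0.596 CPM in Control(D) (SD, n = 6 and 4, edgeR adjusted p = 5.18e-05). Mdm2 fell by 0.54 (edgeR adjusted p = 0.0266). Of the 78 genes for mitochondrial ribosomal proteins 8 rose and 1 fell, with a median of 0.21. Differences between these lists were not tested.

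The other comparisons with a control had fewer calls in the same lists, and fewer over all genes. In Ikk2ca(D) the called genes were Cdkn1a with 3.60 and Mrpl13 with 1.05, and in Ikk2ca(M) Cdkn1a with 3.10. In Ccnd1 and in MMSET no gene of the lists was called. In MMSET-Ikk2ca against Control(M), Cdkn1a rose by 3.99, Eif4ebp1 by 0.67, Eif3c by 0.46 and Mrpl17 by 0.78. Sbds fell by 0.78, Noc4l by 1.11, Eif2b4 by 0.97, Mrpl30 by 0.74 and Mrps36 by 0.67. Those lower were 2 of 54 assembly factors, 1 of 34 initiation factors and 2 of 78 mitochondrial ribosomal protein genes. These shares are near that of all genes, of which 3.41% fell, and 539 of 15416 rose. The elongation factors had a median of 0.13 there. Against Ccnd1, the Ccnd1-Ikk2ca libraries had Rack1, Eef1b2, Eef2, Naca, Eif4b and Eif3f higher, by 0.56, 0.94, 0.68, 0.51, 0.82 and 0.62. Cdkn1a rose there by 2.94, Mdm2 fell by 0.56 and Rheb fell by 0.85.

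Markers of cell types moved with the groups as well. The sums are scaled over all 36 libraries together and the single genes on another scale. A gene is therefore not an exact part of its sum. Summed over each list, Ccnd1-Ikk2ca and Control(D) libraries had these ranges. The 8 plasma cell markers summed to 7523 to 19494 CPM in Ccnd1-Ikk2ca, against 54145 to 99913 CPM in Control(D), where 4 of 8 fell. These were Tnfrsf13b (TACI) with a log2 fold change of −0.57, Tnfrsf17 with −1.11, Mzb1 with −1.59 and Jchain with −2.97. Jchain holds most of the sum. Sdc1 stood at 283 to 541 CPM in Ccnd1-Ikk2ca, against 323 to 393 CPM in Control(D). Xbp1 stood at 1718 to 2858 CPM in Ccnd1-Ikk2ca, against 2041 to 2411 CPM in Control(D), and neither gene was called. The 10 B cell markers summed to 252 to 387 CPM in Ccnd1-Ikk2ca, against 844 to 1130 CPM in Control(D), where 5 fell, and Cr2 was at 0 in Ccnd1-Ikk2ca. The 9 markers of monocytes and macrophages summed to 3783 to 7537 CPM in Ccnd1-Ikk2ca, against 620 to 963 CPM in Control(D), where 1 rose and 1 fell. The one that rose was Ly6c2, which stood at 3671 to 7348 CPM in Ccnd1-Ikk2ca, against 475 to 839 CPM in Control(D). Neutrophil markers summed to 0.899 to 198 CPM in Ccnd1-Ikk2ca, against 44.5 to 495 CPM in Control(D), with 1 of 8 lower. T cell markers summed to 2.02 to 6.48 CPM in Ccnd1-Ikk2ca, against 10.4 to 23 CPM in Control(D), with 1 of 7 tested lower, and NK cell markers to at most 1.67 CPM in Ccnd1-Ikk2ca, against 14.2 to 34.3 CPM in Control(D), with 1 of 3 lower. No gene was called among markers of erythroid cells (0.403 to 15.5 CPM in Ccnd1-Ikk2ca, 1.57 to 6.44 CPM in Control(D)), basophils and eosinophils (196 to 705 CPM, against 154 to 475 CPM), stromal and endothelial cells (11.4 to 29.2 CPM, against 6.12 to 16.6 CPM) or cycling cells (53.4 to 143 CPM, against 46 to 92.9 CPM). In MMSET-Ikk2ca against Control(M), the plasma cell sum was 4431 to 6388 CPM against 31071 to 41705 CPM, with 4 of 8 lower, and the B cell sum 186 to 299 CPM against 677 to 1029 CPM, with 6 of 9 lower. The 4 plasma cell markers lower there were Xbp1 with −0.73, Tnfrsf17 with −2.01, Mzb1 with −4.44 and Jchain with −3.45. The sum of monocytes and macrophages was 4899 to 10238 CPM in MMSET-Ikk2ca against 1674 to 3639 CPM in Control(M), with 2 higher and 2 lower. Ly6c2, 1 of the 2 higher, stood at 4980 to 10419 CPM in MMSET-Ikk2ca, against 1573 to 3614 CPM in Control(M). The other sums in MMSET-Ikk2ca were 1.35 to 4.66 CPM for T cells, at most 1.4 CPM for NK cells and 0.744 to 12.5 CPM for neutrophils, against 4.88 to 18.8, 4.42 to 10.3 and 39.4 to 183 CPM in Control(M), with 0, 1 and 2 genes lower. Erythroid markers summed to 0.657 to 12 CPM in MMSET-Ikk2ca and 3.11 to 10.4 CPM in Control(M), with 1 higher, and stromal and endothelial markers to 26.8 to 82.4 CPM in MMSET-Ikk2ca and 8.79 to 16.9 CPM in Control(M), with 1 higher. Markers of basophils and eosinophils summed to 250 to 627 CPM in MMSET-Ikk2ca and 179 to 390 CPM in Control(M), and those of cycling cells to 2.38 to 111 CPM in MMSET-Ikk2ca and 37 to 117 CPM in Control(M), with none called. The T cell gene Cd8a, the NK cell genes Ncr1 and Klrb1c, the erythroid genes Alas2 and Car1 and the stromal gene Col1a1 were at 0 in all Ccnd1-Ikk2ca libraries. Genes encoded by the mitochondrial genome held 1.87% to 3.26% of the reads outside immunoglobulin genes in Ccnd1-Ikk2ca and 2.05% to 2.85% in Control(D). They held 1.52% to 1.99% in MMSET-Ikk2ca and 2.5% to 3.1% in Control(M), with no overlap. What part these differences have in the ribosomal protein values was not tested.

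The pyrimidine run was set beside the calls in Ccnd1-Ikk2ca against Control(D). Of the 40 genes with a window that rose, 21 held a run, 52.5%, and of the 23 tested genes with a window that were not called, 7 did, 30.4%. The heptamer CCGGAAG stood in 50% of the genes that rose and in 26.1% of those not called. Among the sequences given above, Rps18, Rps6, Rpl39 and Rps27l held a run and rose, whereas Rps27 and Rpl22l1 held a run and were not called. Rpl24 and Rpl41 held no run at the annotated start and rose. The difference in shares is a description without a test, and the annotated start may not be the one used in these cells.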

How the data were processed

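RNA of 2000 sorted cells per library was reverse transcribed with an oligo-dT primer and template switching, amplified and tagmented, per the labels' protocols, with no molecular identifiers described. The submitters' processing notes name bcl2fastq 2.20.0.422, Salmon 1.3.0, DESeq2 1.32.0 and GRCm38, and the annotation release is not given in the sources used here. The deposited tables hold, per the file headers, Salmon's expected counts per transcript and its TPM, which the authors' run scaled to 1 fixed total within each library. Effective lengths were identical in all 36 libraries.

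Expected counts were summed to genes of GENCODE M21 (139960 of 140825 transcripts matched, and the 865 others held 0.0636% to 0.134% of reads) and rounded. Each cohort of 18 libraries was fitted with edgeR 4.0.16 (R 4.3.3, limma 3.58.1; TMM factors, filterByExpr, robust quasi-likelihood test), and comparisons across cohorts used all 36 libraries. Adjusted p-values are Benjamini-Hochberg over all genes tested, called under 0.05. Each SE was taken from the quasi-likelihood F as the absolute log2 change over its root. CPM are scaled by TMM. The test was tried on simulated data with known changes first. Those data had independent genes of equal dispersion, without shifts of whole libraries or a length trend, so they do not bear on these. DESeq2 1.42.0, other scalings and filters, added copies, each library left out, a replicate block, and, added after the values were seen, sums over families of copies, removal of the length trend (lowess span 0.3 over other protein-coding genes of at least 3 average log2 CPM) and omission of Ccnd1-Ikk2ca libraries 2 and 3 were the alternatives.

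The genes and lists were chosen with earlier results of these data known. Genes were named by a fixed rule: both genes of each paralog pair, Rplp0, Rplp1, Rplp2, Rpl5, Rpl11, Rpsa and Rps6, the 5 highest and 5 lowest in mean TPM, up to 6 called per direction and comparison by smallest p, and up to 4 called genes per other list. Genes named for other reasons, including those called by DESeq2 or listed by role or by copies, were chosen after their values were seen. Rps4l, a paralog of Rps4x, is annotated as a pseudogene and is not in the family. No 2 libraries of a group agreed within sampling noise: their median scaled squared difference was 23.9 to 56.1 where sampling noise alone gives 1. The total of 54.0 to 97.5 M reads per library gives the depth of reading. It does not give the counting precision, since the number of molecules behind the reads is not known. Some genes that the rule would name are not reported here, while counts and medians cover all genes of a list.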

Additional observations from a re-analysis of the deposited data

Results flagged for a closer look

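Single libraries stood far from the rest of their group for 7 of 128 combinations of a measure and a group, at Dixon's 95% limit, which chance passes in about 1 of 20. Ccnd1-Ikk2ca library 2 had 987 CPM of Rplp0, where the other 5 had 234 to 415 CPM, 118 CPM of Rpl5, where the others had 33.6 to 45.5 CPM, and 32.5 CPM of Rpl22l1, where the others had 3.45 to 7.57 CPM. Ccnd1-Ikk2ca library 3 had 41.7 CPM of Rps27, where the others had 23 to 28.5 CPM. MMSET library 3 had 440 CPM of Rpl41, where the others had 289 to 298 CPM, and 200 CPM of Rps18, where the others had 112 to 126 CPM. MMSET-Ikk2ca library 3 had 138 CPM of Rpl24, where the others had 67.5 to 92.3 CPM.

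Rps27rt stood out between cohorts. With each cohort scaled on its own, every library of one double transgenic group lay on the opposite side of its control mean from every library of the other. With all 36 libraries scaled together this did not hold, as MMSET-Ikk2ca library 3 lay just above the mean of Control(M). The change in MMSET-Ikk2ca minus that in Ccnd1-Ikk2ca was −0.45 on the log2 scale (SE 0.213, edgeR adjusted p = 0.42), so the difference did not pass.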

How the results depend on the processing

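In Ccnd1-Ikk2ca against Control(D) the 55 calls became 19 with the length trend removed (median 0.38) and 34 without Ccnd1-Ikk2ca libraries 2 and 3 (median 0.46). Against Ccnd1 the 37 calls became 13 under each of these (medians 0.38 and 0.36) and 22 with only the groups compared in the fit. Over all genes, the 893 called higher against Control(D) became 721 with the length trend removed and 632 without libraries 2 and 3. The 430 called higher against Ccnd1 became 406 and 284. Without libraries 2 and 3 the median was 0.03 against Ikk2ca(D) and −0.17 for the MMSET-Ikk2ca change minus the Ccnd1-Ikk2ca change. Rpl22l1 turned to −1.03 without both libraries and to −0.86 without library 2 alone. With DESeq2 the calls against the control of the cohort were 9 in Ikk2ca(D), 8 in MMSET-Ikk2ca, 8 in Ikk2ca(M) and 1 in MMSET, with 5 in MMSET-Ikk2ca against Ikk2ca(M), 2 in the non-additive part of MMSET-Ikk2ca and 1 in Control(M) against Control(D). In MMSET-Ikk2ca against Control(M), MMSET and Ikk2ca(M) there were 0, 0 and 1 calls with only the groups compared and with no low-count filter, and 0 in each with libraries 1 to 4. With the length trend removed the calls were 3 against Control(M) and 1 against Ikk2ca(M). There were 2 against Control(M) without immunoglobulin genes, 1 against Ikk2ca(M) with DESeq2 size factors in edgeR and 1 against MMSET with sums over copies. The cause was not tested.

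Leaving out 1 library gave 33 to 59 calls in Ccnd1-Ikk2ca against Control(D), 18 to 40 against Ccnd1 and 0 to 1 against Ikk2ca(D), the 1 being lower without Ccnd1-Ikk2ca library 2. It gave 0 to 1 for each Ikk2ca group set against its control. For MMSET-Ikk2ca it gave 0 to 3 against Ikk2ca(M), 0 to 2 against MMSET and 0 to 4 against Control(M). Rpl22l1 in Ccnd1-Ikk2ca against Control(D) ran from −0.86 to 0.26. The other comparisons had 0 calls whichever library was left out. Calls over all genes moved in these fits too. Against Control(D), the fits of Ccnd1-Ikk2ca with 33 and 59 calls had 476 and 783 genes higher over all genes. Against Ccnd1, the fits with 18 calls had 197 to 246 higher over all genes, and the fit with 40 had 542.

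The correlation of deviations of same-numbered libraries ran from −0.10 to 0.18 in cohort D and from −0.18 to 0.22 in cohort M. The medians were 0.02 and 0.06, against −0.01 and −0.02 for libraries of other numbers. In cohorts D and M, 6 and 8 of 16 libraries correlated best with their own number. These low values do not settle whether the numbers pair the samples. With the replicate block on libraries 1 to 4, Ccnd1-Ikk2ca had 58 calls against Control(D) and 37 against Ccnd1, where the same libraries without the block gave 58 and 36. The block gave 1 call in Ikk2ca(M) against Control(M), 1 higher in MMSET-Ikk2ca against Control(M), and 0 against MMSET and against Ikk2ca(M). Of the values of single genes under alternatives, 11819 counted as unchanged, 159 lost the call, 33 gained it and 2 counted as reversed. Those 2 were of Rpl22l1 in Ccnd1-Ikk2ca against Control(D). Unchanged does not mean that the direction was kept. Values that were not called could change sign and not count as reversed, as that of Rplp0 given above. The reads are not deduplicated by molecular identifiers, so counts per library overstate the number of molecules seen.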
